A study of Mus musculus with 6 samples.

Results

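The genes described here encode enzymes and subunits that modify histones, methylate or demethylate DNA, read histone marks or move nucleosomes. They were taken from a whole-transcriptome comparison by gene symbol alone, as the genes whose symbols begin with Smarc, Dnmt, Setd or Uhrf, or with Hdac, Sirt, Kdm, Chd, Brd, Cbx or Kat and a number, together with the Tet and Ezh genes. A few symbols of this pattern are not analysed here. The rule found 96 genes in 13 families among 22609 rows of the table, and all 96 were among the 16241 genes the authors tested. The rule itself uses no measured value, but it was chosen with earlier results of these data known. Of the 96, 3 carry a matching name without being chromatin enzymes or subunits: Uhrf1bp1 and Uhrf1bp1l, which are named for binding UHRF1 and belong to a family of lipid transfer proteins, and the pseudogene Smarca5-ps. Several other members are known to act mainly on proteins outside chromatin, among them the mitochondrial sirtuins, the tubulin deacetylase gene Hdac6 and Setd3, which methylates actin.

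RNA was sequenced from early T cell progenitors (ETPs, the most immature cells of the thymus) sorted from fetal thymus of C57BL/6 mice, in 3 double-knockout (dKO) and 3 wild-type control libraries. The dKO genotype was E2Afl/flHEBfl/flIL7RCre: floxed alleles of E2A (gene Tcf3) and HEB (gene Tcf12), which encode E proteins, deleted by Cre made from the Il7r locus and so only in cells that have expressed that locus. Both groups were gated as lineage-negative CD44+ and c-Kit+ cells without CD25, CD4 or CD8, and dKO cells were gated in addition on YFP. That gate therefore differed along with the genotype, and the 2 cannot be told apart. For each gene the files give 1 mean per group of the normalised count, a read count divided by a size factor for library depth, and no spread between libraries. Genes with an authors' adjusted p under 0.05 were called, as higher or lower in dKO. Whether the 3 libraries of each genotype stem from different animals is not stated, so these p-values measure the spread between the 3 libraries of each group, which may be technical. In RNA from a sorted population, fewer cells with a transcript and less of it per cell cannot be told apart.

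Depth was about 24.3 to 27.0 M reads per dKO library and 18.2 to 22.6 M per control library, as the spacing of the low means gives it. Tcf3 was at 4.07% and Tcf12 at 14.6% of control in dKO in the authors' deposited table. Of 8 marker genes of early T lineage cells, Kit, Il7r and Ptprc were called higher and Flt3, Notch1 and Cd3e lower in dKO. Cd44 and Thy1 did not pass. Not all of the 8, Ptprc and Cd3e among them, are particular to ETPs. Kit, the defining marker, had means of 19067 in dKO and 14094 in control in the authors' deposited table. Of 4 genes whose products the gate excluded, Il2ra (CD25) had means of 8536 in dKO and 8417 in control in the authors' deposited table and was not called. Cd4 had means of 34.8 in dKO and 104 in control in the authors' deposited table and was called lower. Cd8a, with 27.2 in dKO and 9.51 in control, and Cd8b1, with 0.288 in dKO and 1.10 in control, were not called. Markers of other cells were summed. The level of 6 myeloid markers was 2277 in dKO and 8788 in control, mostly Mpo, with Elane at 0 in control. Mpo, Csf1r and Lyz2 were called lower, and Elane did not pass. Neither did Itgam, with means of 385 in dKO and 400 in control, or Cd68, with 209 in dKO and 144 in control. The sum of 6 erythroid markers was 122.0 in dKO and 1189 in control, mostly the globin gene Beta-s, with Hbb-b1 and Hba-a1 at 0 in both groups. The sum of 5 B lineage markers was 46.1 in dKO and 124 in control. Pax5 was at 0 in both groups and Ebf1 at 0 in dKO. For 5 stromal markers the sum was 359 in dKO and 236 in control, mostly Epcam, and 0 of the 5 were called. Pdgfra and Cdh5 were at 0 in both groups. The part these differences have in any result below was not tested.

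Chromatin is the packaging of DNA around histone octamers. Acetyl groups on histones are written by acetyltransferases (KATs), read by bromodomain proteins (BRDs) and removed by deacetylases (HDACs and sirtuins), while methyl groups are written by SET domain proteins such as EZH2 and removed by demethylases (KDMs). ATP-driven remodellers of the SWI/SNF (BAF), ISWI and CHD groups slide or evict nucleosomes, and Polycomb complexes keep genes silent through EZH and CBX proteins. In developing T cells such factors are known to help silence progenitor genes and to open T lineage loci, and E proteins work with several of them at their target sites.

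Calls lower in dKO outnumbered calls higher among the chromatin genes, and most differences were small, as they were among abundant genes at large. Of the 96, 13 were called higher and 24 lower in dKO, and 59 did not pass. The share called higher was 13.5%, against 15.1% over all tested genes, and the share called lower was 25.0%, against 13.8%. Together 38.5% were called, against 29.0% of all tested genes. Abundant genes were called more often, and these genes were abundant: 88 of 96 (91.7%) had an average of the group means of at least 100, against 63.4% of all tested genes. Among those 88, 14.8% were called higher, against a background of 21.2%, and 27.3% lower, against 19.1%. In both directions 37 of the 88 were called, near the background of 40.4% of all tested genes of that abundance. Large changes were few: 6 of the 96 (6.25%) were called with at least a 2-fold difference, against 12.6% of all tested genes. In the abundant class the share was 6.82%, against 14.5%. Differences under 1.5-fold were found in 73.9% of the 88 abundant genes, against 70.9% of all tested genes of that abundance. The median size of a called change was 1.55-fold for the chromatin genes and 1.81-fold for all called genes. For all called genes with an average of at least 100 it was 1.69-fold, and the 37 called chromatin genes were all in that class. The median log2 change of the 96 was -0.13, and that of all tested genes was -0.02. For the 88 abundant genes the median was -0.073, nearer 0, and that of all tested genes of that abundance was 0.0055. Counts and medians of a list of this kind are descriptions and carry no test. Those of single families and partner lists rest on few genes and are to be read against the same background shares.

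**Figure D1:**
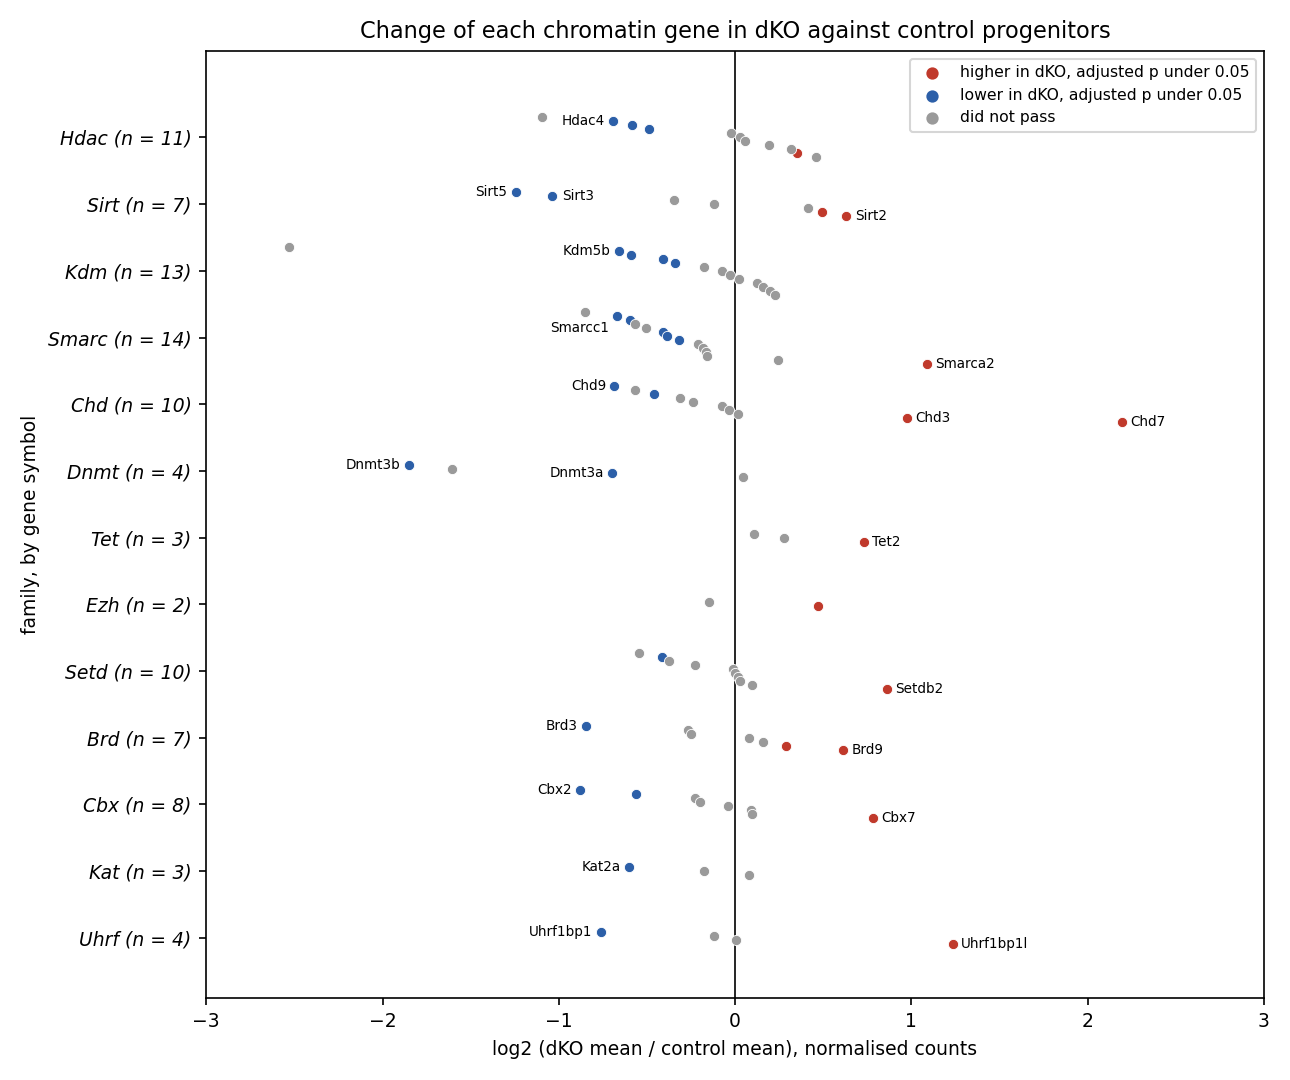
Log2 ratio of the dKO mean over the control mean of normalised counts (x axis) for each of the 96 chromatin genes, by family (y axis), with 1 point per gene coloured by the authors' adjusted p. Most points lie close to 0, Chd7 is farthest to the right among called genes at 2.19 and Dnmt3b farthest to the left at -1.85. The grey points at -2.53 (Kdm4d) and -1.60 (Dnmt3l, listed at 0 in dKO and set to a floor of 3 reads) rest on few reads.

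The 6 called changes of at least 2-fold were rises of Chd7, Uhrf1bp1l and Smarca2 and falls of Dnmt3b, Sirt5 and Sirt3. Chd7, a nucleosome remodeller that works at enhancers, had means of 3182 in dKO and 695 in control in the authors' deposited table, a difference of 4.58-fold (higher in dKO, authors' adjusted p = 1.27e-25). Dnmt3b, a de novo DNA methyltransferase, had means of 2557 in dKO and 9212 in control in the authors' deposited table, a difference of 3.60-fold (lower in dKO, authors' adjusted p = 1.4e-10). Promoter windows are shown for the largest changes with an entry in the RefSeq-derived table, because E proteins bind the E-box CANNTG and the windows show how many such letters lie beside these start sites. Each window runs from 250 bases before to 50 after a RefSeq gene start on build GRCm38.p6, 5′ to 3′ on the gene's strand, while the authors' processing notes list mm9. Capitals mark CANNTG, which reads the same on both strands. Chd7 has no window in the table. The windows lie at chr10:89744741-89745040 (plus strand) for Uhrf1bp1l, chr19:26604910-26605209 (plus strand) for Smarca2, chr2:153649199-153649498 (plus strand) for Dnmt3b and chr13:43365285-43365584 (plus strand) for Sirt5.
Uhrf1bp1l: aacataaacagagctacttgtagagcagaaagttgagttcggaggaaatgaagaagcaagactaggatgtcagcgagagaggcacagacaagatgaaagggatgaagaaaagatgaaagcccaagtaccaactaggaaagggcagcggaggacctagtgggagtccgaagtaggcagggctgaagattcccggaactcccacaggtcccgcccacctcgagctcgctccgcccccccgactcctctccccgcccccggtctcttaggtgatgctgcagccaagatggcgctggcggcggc
Smarca2: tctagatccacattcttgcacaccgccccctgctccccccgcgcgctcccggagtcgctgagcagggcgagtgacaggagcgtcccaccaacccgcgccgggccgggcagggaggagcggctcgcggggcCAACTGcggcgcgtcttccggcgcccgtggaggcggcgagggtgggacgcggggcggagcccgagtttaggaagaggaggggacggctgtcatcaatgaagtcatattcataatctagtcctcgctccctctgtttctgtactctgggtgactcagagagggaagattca
Dnmt3b: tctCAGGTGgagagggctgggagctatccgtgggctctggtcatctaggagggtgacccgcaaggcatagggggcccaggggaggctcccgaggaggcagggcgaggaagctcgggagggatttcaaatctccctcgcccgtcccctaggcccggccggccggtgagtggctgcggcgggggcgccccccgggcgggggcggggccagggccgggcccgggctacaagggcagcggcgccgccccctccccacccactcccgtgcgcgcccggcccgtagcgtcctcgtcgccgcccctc
Sirt5: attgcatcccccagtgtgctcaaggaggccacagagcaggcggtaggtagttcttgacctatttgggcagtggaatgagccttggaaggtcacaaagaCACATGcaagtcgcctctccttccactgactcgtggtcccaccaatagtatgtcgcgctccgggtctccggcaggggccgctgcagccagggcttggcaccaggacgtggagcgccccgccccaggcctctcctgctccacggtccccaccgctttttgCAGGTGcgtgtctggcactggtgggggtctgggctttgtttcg

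The Uhrf1bp1l window held no CANNTG, those of Smarca2 and Dnmt3b held 1 each and that of Sirt5 held 2. The Dnmt3b match, CAGGTG, begins at base 4 of the 300, near the upstream end, and the Sirt5 matches begin at bases 99 and 258. Windows were found for 76 of the 96 genes, 107 windows in all, since some genes have several starts. CANNTG was present in 64.5% of the windows of these 76 genes, against 66.2% of 14096 windows of tested genes. It was present in 61.5% of 13 windows of genes called higher, in 53.6% of 28 windows of genes called lower and in 69.7% of 66 windows of genes that did not pass. CAGCTG, which is a part of CANNTG, was present in 17.8% of the chromatin gene windows, against 16.1% for tested genes, and CACCTG or its reverse complement CAGGTG, also parts of CANNTG, in a share below the 19.5% of tested genes. Over all 32851 windows in the table, 72.3% held CANNTG. The median number of CG dinucleotides per window was 24, against 18 for tested genes. These matches are letters in a short window and say nothing of binding.

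The genes of DNA methylation and its removal are given by roles that were assigned after their values were seen, and differences between roles were not tested. Of the enzymes of new methylation, Dnmt3b and Dnmt3a both fell. Dnmt3a had means of 4908 in dKO and 7962 in control in the authors' deposited table, a difference of 1.62-fold (lower in dKO, authors' adjusted p = 9.45e-11). Both changes were called, and the fold of Dnmt3b was the deeper by 1.15 on the log2 scale, a difference that was not tested. The genes for copying methylation did not pass. Dnmt1, which restores methylation after replication, had means of 15751 in dKO and 15272 in control in the authors' deposited table (authors' adjusted p = 0.875). Its partner Uhrf1, which recognises half-methylated DNA, had means of 12806 in dKO and 13925 in control in the authors' deposited table (authors' adjusted p = 0.378), and the related Uhrf2 had 2812 in dKO and 2804 in control. Dnmt3l, a cofactor without catalytic activity, had 0 reads in all 3 dKO libraries and 9, 0 and 0 reads in the control libraries, so its reads came from a single library. Of the TET dioxygenases, which oxidise methylcytosine as a step to its removal, Tet2 rose 1.66-fold, with means of 1240 in dKO and 747 in control in the authors' deposited table (authors' adjusted p = 1.03e-05). Tet1 had means of 1080 in dKO and 891 in control and Tet3 of 2937 in dKO and 2731 in control in the authors' deposited table, and neither passed.

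**Figure D2:**
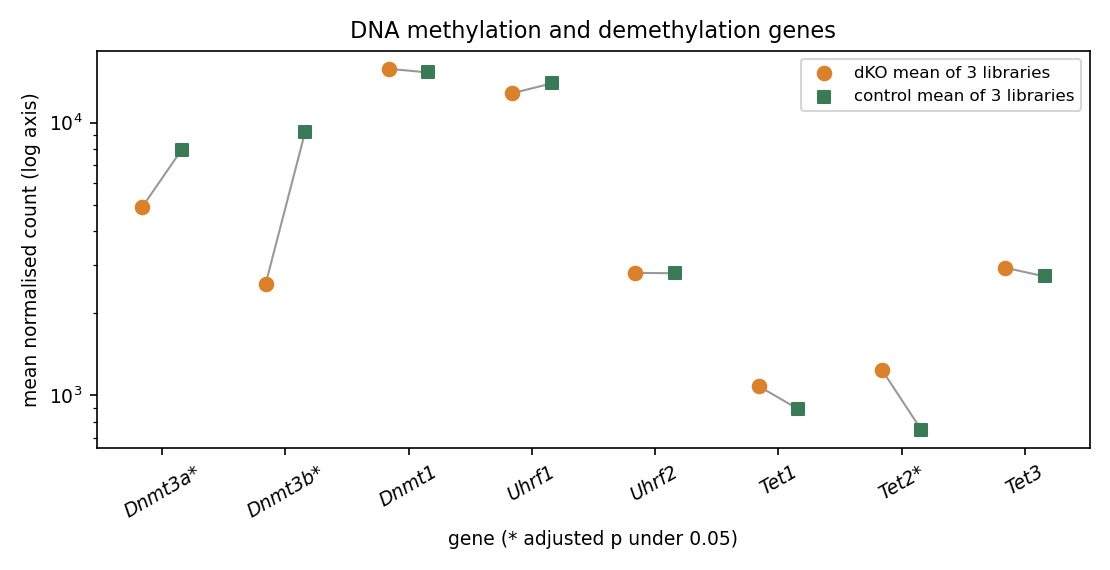
Mean normalised count (y axis, log scale) of 8 genes of DNA methylation and demethylation, with dKO means (circles) left of control means (squares), each a mean of 3 libraries with no error bars because the files used give only means. The steep lines belong to Dnmt3b (2557 in dKO, 9212 in control), Dnmt3a and Tet2, and those of Dnmt1, Uhrf1 and Uhrf2 are close to flat.

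Dnmt1 and Uhrf1 are also known as genes of cycling cells, so cycling markers were compared. Of 20 such markers, 6 were called higher, 1 lower and 13 did not pass, and their summed level was 208860 in dKO and 183191 in control. Mki67, a proliferation antigen gene, had means of 27530 in dKO and 17723 in control in the authors' deposited table, a difference of 1.55-fold (higher in dKO, authors' adjusted p = 1.93e-09). The replication helicase gene Mcm7 was the marker that fell, with means of 10617 in dKO and 13953 in control in the authors' deposited table (authors' adjusted p = 0.000242). Whether cycling has a part in the values of Dnmt1, Uhrf1 or Ezh2 was not tested.

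Among readers of methyl-CpG and genes linked to DNA demethylation outside the rule, 3 of 15 were called higher and 2 lower. Their median log2 change was 0.02. Together 33.3% were called, against 29.0% of all tested genes and 40.4% of abundant ones. Gadd45g, a stress-response gene linked to demethylation, had means of 1476 in dKO and 85.6 in control in the authors' deposited table, a difference of 17.2-fold (higher in dKO, authors' adjusted p = 5.52e-95). Zbtb4, a methyl-DNA-binding zinc finger gene, rose 2.22-fold, while the related Zbtb38 fell 1.91-fold. Apobec3, at 6594 in dKO and 7932 in control, did not pass.

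The Smarc family held 1 call higher and 5 lower among 14 genes, 42.9% in all. The background was 29.0% of all tested genes and 40.4% of abundant ones. Most of the family are SWI/SNF or ISWI genes, but Smarcad1, Smarcal1 and the pseudogene Smarca5-ps are not. BAF complexes carry 1 of 2 alternative ATPases. Smarca2, which encodes BRM, had means of 2393 in dKO and 1125 in control in the authors' deposited table, a difference of 2.13-fold (higher in dKO, authors' adjusted p = 5.75e-09). Smarca4, which encodes the other ATPase, BRG1, had means of 10034 in dKO and 11258 in control in the authors' deposited table, which missed the threshold (authors' adjusted p = 0.188). The core subunit gene Smarcc1 (BAF155) had means of 5799 in dKO and 9216 in control in the authors' deposited table, a difference of 1.59-fold (lower in dKO, authors' adjusted p = 2.92e-10). Its paralogue Smarcc2 (BAF170), with means of 5219 in dKO and 4399 in control in the authors' deposited table, did not pass at 0.05 (authors' adjusted p = 0.0724). Smarce1 fell 1.33-fold and Smarcd1 1.30-fold. Smarcb1, another BAF subunit gene, had means of 4031 in dKO and 4565 in control in the authors' deposited table, which missed the threshold. Smarcd2 was at 3047 in dKO and 4522 in control in the authors' deposited table, a wider gap than that of Smarce1, yet did not pass (authors' adjusted p = 0.335). Of the ISWI ATPases, Smarca5 (SNF2H) fell 1.25-fold and Smarca1 did not pass. Smarcad1, a remodeller that acts at replicated chromatin and DNA breaks, had means of 1688 in dKO and 2555 in control in the authors' deposited table, a difference of 1.51-fold (lower in dKO, authors' adjusted p = 1.13e-05), and the related Smarcal1 did not pass.

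Of 16 tested subunits of SWI/SNF that the rule does not take, 8 were called lower, 2 higher and 6 did not pass. Of all tested genes 13.8% were called lower, and of abundant ones 19.1%. Their median log2 change was -0.36, against -0.02 over all tested genes. Bcl11a, a transcription factor of lymphoid progenitors that also purifies with BAF, had means of 936 in dKO and 3525 in control in the authors' deposited table, a difference of 3.77-fold (lower in dKO, authors' adjusted p = 3.42e-50). Arid2, a subunit of the PBAF form, had means of 3135 in dKO and 4635 in control in the authors' deposited table, a difference of 1.48-fold (lower in dKO, authors' adjusted p = 2.32e-06). Bcl7a, another subunit gene, fell 1.93-fold. Pbrm1, with means of 7522 in dKO and 7484 in control in the authors' deposited table, did not pass. Among 17 genes, mostly partners in the ISWI, INO80 and SRCAP complexes, 5 were called lower and 0 higher by the authors' DESeq test. At an unadjusted p under 0.05 in that test, 7 were lower and 0 higher. The 29.4% called lay near the 29.0% of all tested genes and below the 40.4% of abundant ones. Baz2b fell 1.93-fold, and the paired ATPase genes Ruvbl2 and Ruvbl1 fell 1.63-fold and 1.48-fold.

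CHD remodeller genes moved in both directions, with 2 of 10 called higher and 2 lower. These shares of few genes lay near those of abundant tested genes, of which 21.2% were called higher and 19.1% lower. Of all tested genes 15.1% were called higher and 13.8% lower. After Chd7, the second rise was that of Chd3, a Mi-2 ATPase of the NuRD corepressor, with means of 3150 in dKO and 1604 in control in the authors' deposited table, a difference of 1.96-fold (higher in dKO, authors' adjusted p = 3.15e-07). Chd4, the other main Mi-2 ATPase, had means of 12263 in dKO and 12892 in control in the authors' deposited table, which missed the threshold (authors' adjusted p = 0.679). Chd9, a relative of Chd7, had means of 1332 in dKO and 2140 in control in the authors' deposited table, a difference of 1.61-fold (lower in dKO, authors' adjusted p = 1.08e-06). Chd6, in the same subgroup, fell 1.37-fold, and Chd8, its remaining member, had means of 1490 in dKO and 1755 in control in the authors' deposited table, which missed the threshold. Chd1, with means of 2198 in dKO and 2733 in control, Chd2, with 1856 in dKO and 1835 in control, and Chd1l did not pass either.

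Histone deacetylase genes held 1 call higher and 3 lower among 11. Together 36.4% were called, against 29.0% of all tested genes and 40.4% of abundant ones. The class I enzymes Hdac1 and Hdac2 share the same corepressor complexes and moved in opposite directions. Hdac1 had means of 10326 in dKO and 8084 in control in the authors' deposited table, a difference of 1.28-fold (higher in dKO, authors' adjusted p = 0.00176). Hdac2 had means of 4449 in dKO and 6230 in control in the authors' deposited table, a difference of 1.40-fold (lower in dKO, authors' adjusted p = 2.71e-05). Hdac4, a class IIa enzyme that shuttles between nucleus and cytoplasm, had means of 509 in dKO and 823 in control in the authors' deposited table, a difference of 1.62-fold (lower in dKO, authors' adjusted p = 0.000575). Hdac8, the third class I gene called, fell by 0.58 on the log2 scale, with means of 352 in dKO and 528 in control in the authors' deposited table. Hdac3, the enzyme of the NCoR corepressor, had means of 3492 in dKO and 3419 in control in the authors' deposited table, which missed the threshold. Hdac7, the class IIa enzyme best known in thymocytes, had 2775 in dKO and 2816 in control in the authors' deposited table, which missed the threshold. Hdac5, Hdac6, Hdac9, Hdac10 and Hdac11 did not pass.

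Of 19 corepressor partners of these enzymes, 3 were called higher and 2 lower, with a median log2 change of 0.04. The share called, 26.3%, lay below the 29.0% of all tested genes and the 40.4% of abundant ones. Mbd2, the methyl-CpG-binding subunit of NuRD, had means of 1069 in dKO and 554 in control in the authors' deposited table, a difference of 1.93-fold (higher in dKO, authors' adjusted p = 1.01e-07). Mta3 and Mta1, alternative subunits of the same complex, fell 1.69-fold and 1.65-fold, whereas Mta2, with means of 11723 in dKO and 10469 in control in the authors' deposited table, did not pass.

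Sirtuin genes, which encode NAD-dependent deacylases, held 2 calls in each direction among 7. That is 57.1% of few genes, against 29.0% of all tested genes and 40.4% of abundant ones. Both falls were of mitochondrial sirtuins. Sirt3, the main mitochondrial deacetylase, had means of 671 in dKO and 1377 in control in the authors' deposited table, a difference of 2.05-fold (lower in dKO, authors' adjusted p = 1.77e-10). Sirt5, which removes succinyl and malonyl groups in mitochondria, had normalised counts of 279, 214 and 220 in the dKO libraries, against a mean of 563 in control cells by the authors' deposited table, a difference of 2.37-fold (lower in dKO, authors' adjusted p = 1.41e-07). Each dKO library lay below the control mean. At means of 200 to 500 in dKO, as for Sirt5 and Cbx8, only 54.0% of values had a single solution in reads. Sirt4, the third mitochondrial member, had 144, 149 and 155 in the dKO libraries, against a mean of 190 in control cells by the authors' deposited table, and missed the threshold. Sirt2, found mainly in the cytosol, had means of 1398 in dKO and 902 in control in the authors' deposited table, a difference of 1.55-fold (higher in dKO, authors' adjusted p = 0.000169). Sirt7, a nucleolar enzyme, rose 1.41-fold, with means of 2266 in dKO and 1611 in control in the authors' deposited table. The nuclear members Sirt1 and Sirt6 did not pass.

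Histone demethylase genes held 4 calls lower and 0 higher among 13 by the authors' DESeq test, with the same 4 and 0 at the authors' unadjusted p under 0.05. The share called, 30.8%, was near the 29.0% of all tested genes and below the 40.4% of abundant ones. Kdm5b, which removes a methyl mark of active promoters, had means of 2543 in dKO and 4014 in control in the authors' deposited table, a difference of 1.58-fold (lower in dKO, authors' adjusted p = 0.000321). Kdm2b, which brings a Polycomb complex to CpG islands, had means of 1712 in dKO and 2578 in control in the authors' deposited table, a difference of 1.51-fold (lower in dKO, authors' adjusted p = 0.00646). Kdm1a (LSD1) fell 1.33-fold and Kdm3b, which acts on a repressive methyl mark, 1.27-fold. Their relatives Kdm5a, Kdm2a and Kdm3a did not pass. Kdm5a had means of 4683 in dKO and 4927 in control in the authors' deposited table, and Kdm2a of 3075 in dKO and 2825 in control. Kdm6b, which removes the methyl mark written by Polycomb, had means of 1138 in dKO and 992 in control in the authors' deposited table, which missed the threshold. The KDM4 genes did not pass. Under an older symbol the table also holds Kdm8, as Jmjd5, with means of 322 in dKO and 488 in control in the authors' deposited table, a difference of 1.52-fold (lower in dKO, authors' adjusted p = 0.0233), and Kdm7a, as Jhdm1d, which did not pass. The 9 demethylase genes that did not pass included Kdm4d, which had 2, 1 and 0 reads in the dKO libraries and 12, 0 and 3 in the control libraries.

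Of 12 genes of the Setd and Ezh families, not all of which encode histone methyltransferases, 3 were called. The share called was 25.0%, against 29.0% of all tested genes and 40.4% of abundant ones. Setdb2, which encodes a putative histone methyltransferase, had means of 952 in dKO and 524 in control in the authors' deposited table, a difference of 1.82-fold (higher in dKO, authors' adjusted p = 2.73e-06). Its relative Setdb1, the heterochromatin methyltransferase that works with Trim28, had means of 3124 in dKO and 3082 in control in the authors' deposited table (authors' adjusted p = 0.976). Setd2, which writes a methyl mark over transcribed genes, fell 1.33-fold, with means of 2982 in dKO and 3979 in control in the authors' deposited table (authors' adjusted p = 0.000929). The other 8 of 10 Setd genes did not pass, among them Setd3, Setd5, Setd8 and Setd1a. Setd1a had means of 527.3 in dKO and 526.8 in control in the authors' deposited table. Of the catalytic subunits of Polycomb repressive complex 2, Ezh1 rose 1.39-fold, with means of 1550 in dKO and 1117 in control in the authors' deposited table (authors' adjusted p = 0.00523). Ezh2, the form of dividing cells, had means of 3997 in dKO and 4426 in control in the authors' deposited table, which missed the threshold (authors' adjusted p = 0.364).

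Of 9 partner genes of Polycomb repressive complex 2, 4 were called higher and 1 lower, with a median log2 change of 0.31. The share called higher was 44.4% of few genes, against 15.1% of all tested genes and 21.2% of abundant ones. In either direction 55.6% were called, against 29.0% and 40.4%. Mtf2, which recruits the complex to CpG islands, had means of 3040 in dKO and 5931 in control in the authors' deposited table, a difference of 1.95-fold (lower in dKO, authors' adjusted p = 9.66e-18). Phf19, an alternative to Mtf2, had means of 1110 in dKO and 448 in control in the authors' deposited table, a difference of 2.48-fold (higher in dKO, authors' adjusted p = 1.73e-06). Phf1, the third of these alternatives, rose 1.91-fold, while the core histone-binding subunit gene Rbbp4 did not pass.

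The CBX proteins comprise Polycomb readers and the HP1 proteins of heterochromatin, and 1 of 8 was called higher and 2 lower. Called genes made up 37.5%, against 29.0% of all tested genes and 40.4% of abundant ones. Cbx2 had means of 1519 in dKO and 2793 in control in the authors' deposited table, a difference of 1.84-fold (lower in dKO, authors' adjusted p = 1.67e-11). Cbx7, an alternative subunit in the same place of the complex, had means of 490 in dKO and 285 in control in the authors' deposited table, a difference of 1.72-fold (higher in dKO, authors' adjusted p = 0.00333). Cbx6 and Cbx8 did not pass. Cbx8 had 212, 216 and 221 in the dKO libraries, against a mean of 203 in control cells by the authors' deposited table. Of the HP1 genes, Cbx1 fell 1.48-fold, while Cbx3, with means of 8999 in dKO and 9250 in control, and Cbx5, with 8552 in dKO and 9824 in control in the authors' deposited table, did not pass. In the rest of Polycomb repressive complex 1, 3 of 14 genes were called higher and 2 lower, with a median log2 change of 0.08. That is 35.7% called, against 29.0% of all tested genes and 40.4% of abundant ones. Rnf2, its ubiquitin ligase, had means of 4572 in dKO and 2709 in control in the authors' deposited table, a difference of 1.69-fold (higher in dKO, authors' adjusted p = 3.29e-06). Phc3 rose 1.96-fold and Pcgf6 fell 1.49-fold. Of 10 heterochromatin and histone chaperone genes, 3 were called higher and 2 lower. Asf1b, a chaperone of replication, had means of 6506 in dKO and 2999 in control in the authors' deposited table, a difference of 2.17-fold (higher in dKO, authors' adjusted p = 1.45e-22), and Trim28 fell 1.60-fold.

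Bromodomain genes held 2 calls higher and 1 lower among 7, or 42.9% called. Of abundant tested genes 40.4% were called, and of all tested genes 29.0%. Of the BET proteins, which bind acetylated histones at active genes, Brd3 had means of 3054 in dKO and 5497 in control in the authors' deposited table, a log2 change of -0.85 (authors' adjusted p = 5.86e-14). Brd2 had means of 7733 in dKO and 6322 in control in the authors' deposited table, a difference of 1.22-fold (higher in dKO, authors' adjusted p = 0.0171). Brd9, a subunit of the non-canonical BAF complex, rose 1.53-fold, with means of 1890 in dKO and 1235 in control in the authors' deposited table (authors' adjusted p = 2.27e-05). Brd1, Brd7 and Brd8 did not pass. Of the acetyltransferase genes, Kat2a (GCN5) had means of 2696 in dKO and 4091 in control in the authors' deposited table, a difference of 1.52-fold (lower in dKO, authors' adjusted p = 5.43e-07). Its close relative Kat2b (PCAF), with means of 516 in dKO and 583 in control in the authors' deposited table, and Kat5 (TIP60), with 1216 in dKO and 1152 in control, did not pass. The MYST enzymes stand in the table under older symbols. Of these Myst1 (now Kat8) fell 1.39-fold and Myst2, Myst3 and Myst4 did not pass.

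Among 28 other coactivators and acetyltransferase partners, 5 were called higher and 2 lower, with a median log2 change of 0.09. Ncoa1, a nuclear receptor coactivator, had means of 642 in dKO and 203 in control in the authors' deposited table, a difference of 3.16-fold (higher in dKO, authors' adjusted p = 3.62e-13). Ncoa3, a relative, rose 1.85-fold. Ep300, an acetyltransferase that E proteins are known to recruit, had means of 2804 in dKO and 2071 in control in the authors' deposited table, a difference of 1.35-fold (higher in dKO, authors' adjusted p = 0.00149). Of 13 KMT2 (MLL) enzymes and partners, 1 was called higher and 2 lower, and each differed by less than 1.5-fold. Of 22 other lysine and arginine methyltransferases, 2 were called higher and 6 lower, with a median log2 change of -0.12. Smyd2 had the smallest adjusted p of these, with means of 718 in dKO and 1293 in control in the authors' deposited table, a log2 change of -0.85. The shares called in the coactivator, KMT2 and other methyltransferase lists were 25.0%, 23.1% and 36.4%. The background was 29.0% of all tested genes and 40.4% of abundant ones. Over all 10 lists of partners, 26 of 163 tested genes were called higher and 32 lower, with a median log2 change of -0.04. The shares were 16.0% higher, against 15.1% of all tested genes, and 19.6% lower, against 13.8%. Among the 155 of these genes with an average of at least 100, 36.1% were called in either direction, below the background of 40.4%.

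To show how close relatives differed in their changes, 14 pairs were set side by side, chosen after their values were seen. The ratio of the 2 changes does not depend on gene length. Relative to Smarca4, Smarca2 was 2.39-fold higher in dKO than in control, and relative to Chd4, Chd3 was 2.06-fold higher. The ratio of Cbx7 to Cbx2 was 3.16-fold higher in dKO, that of Brd2 to Brd3 2.20-fold and that of Chd7 to Chd8 5.39-fold. For Hdac1 against Hdac2 it was 1.79-fold and for Ezh1 against Ezh2 1.54-fold. In 3 of the pairs, Hdac1 with Hdac2, Cbx7 with Cbx2 and Brd2 with Brd3, a call higher stood against a call lower. The ratios themselves could not be tested, because no values per library are given for genes of this abundance.

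**Figure D3:**
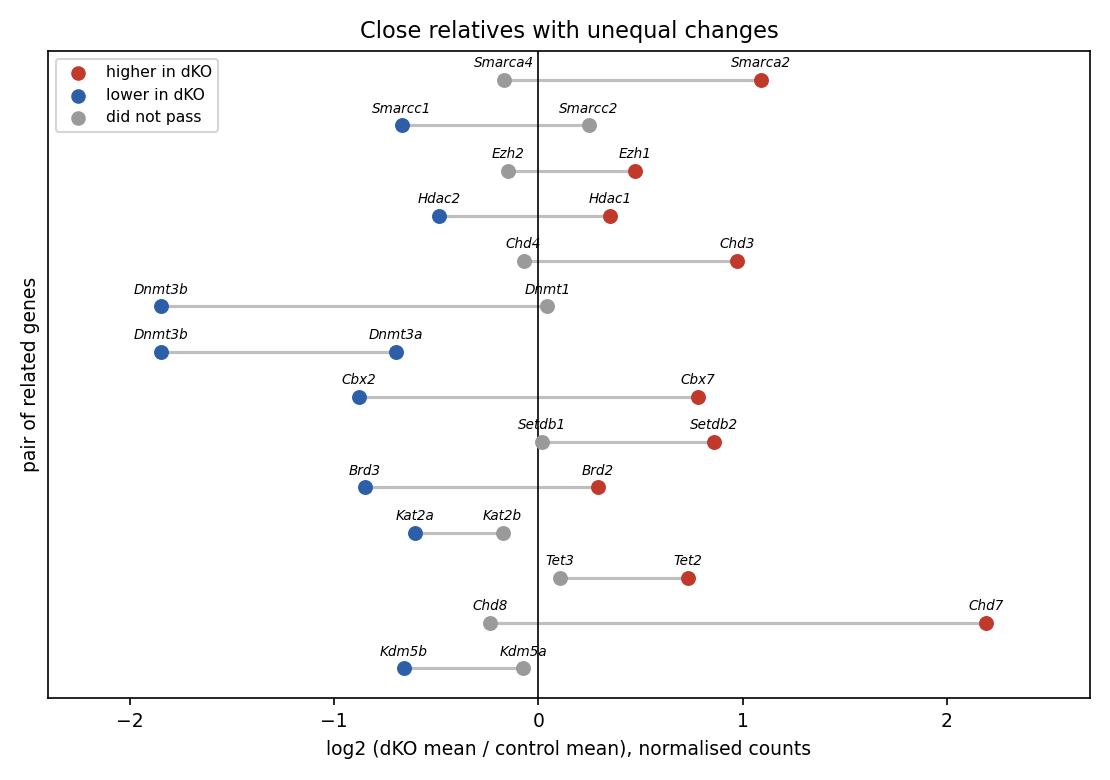
Log2 ratio of the dKO mean over the control mean of normalised counts (x axis) for 14 pairs of related chromatin genes (1 line per pair on the y axis), coloured by the authors' adjusted p. In the pairs Hdac1 with Hdac2, Cbx7 with Cbx2 and Brd2 with Brd3 a gene called higher is joined to one called lower, and the widest pair is Chd7 with Chd8.

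For 8 chromatin genes with group means under 100, the means could be solved into whole reads for each library, which shows the spread that the table does not give. None of the 8 was called, and 0 had an unadjusted p under 0.05 in the authors' DESeq test. Hdac11 had normalised counts of 34.6, 22.3 and 16.4 in the dKO libraries and 56.6, 68.3 and 31.6 in the control libraries. The highest dKO library lay above the lowest control library, so the groups overlap. Smarcd3 had 41.5, 70.7 and 27.9 in the dKO libraries and 91.8, 54.6 and 52.2 in the control libraries, and these too overlap. Hdac9 had 38, 10 and 38 reads in the dKO libraries and 12, 40 and 3 in the control libraries, so that libraries of 1 group differed more than the groups. Chd5, a neural Mi-2 gene, had 14.7, 27.9 and 0.963 in the dKO libraries and 33.2, 25.2 and 6.07 in the control libraries. Smarca1 had 38.1, 83.7 and 56.8 in the dKO libraries and 52.7, 78.8 and 68.0 in the control libraries. The groups overlap in both genes. The pseudogene Smarca5-ps had 21.6, 19.5 and 24.1 in the dKO libraries and 64.4, 23.1 and 30.4 in the control libraries, and the lowest control library lay below the highest of dKO. The remaining Dnmt3l and Kdm4d are described above.

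**Figure D4:**
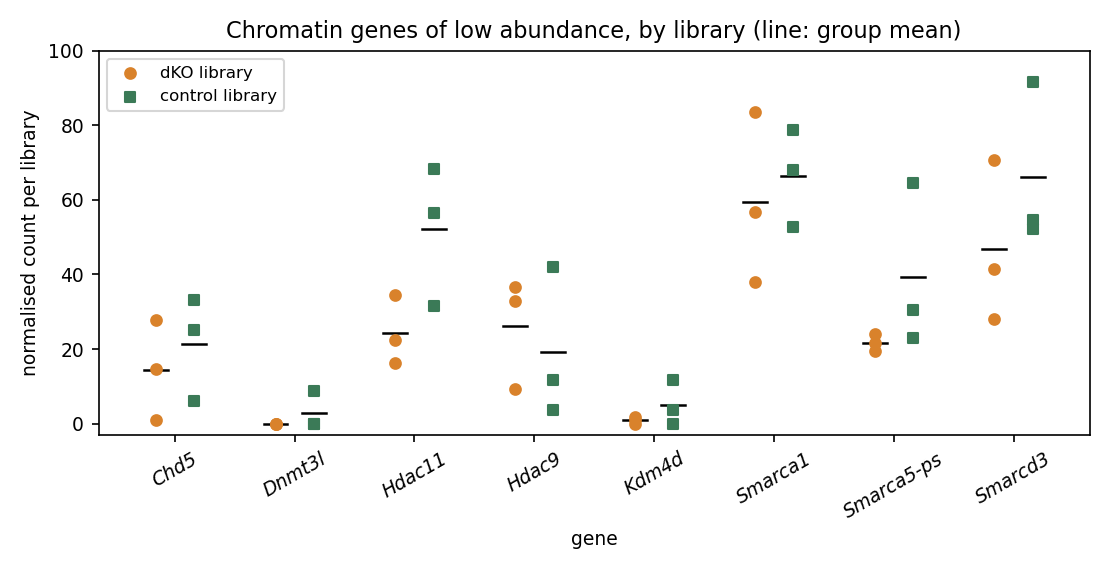
Normalised count in each library (y axis, points) of the 8 chromatin genes whose group means could be solved into reads (x axis), dKO (circles) left of control (squares), with a line at each group mean. The dKO and control points overlap in each gene, counting the control libraries of Dnmt3l at 0 as overlap, and libraries of 1 group differ severalfold in Chd5 and Hdac9.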

How the data were processed

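RNA from sorted cells was amplified with a low-input SMARTer kit and sequenced on an Illumina HiSeq, per the labels' protocols, so reads are not independent molecules and floors cover counting error only. Tools named by the submitters' processing notes, without roles, are TopHat2 2.0.14, DESeq version 2 and bcl2fastq 1.8.4, and the build is mm9. Which counter and annotation were used is not given in the sources used here. The signal columns are base means, per the file headers: a normalised count averaged by the authors within each group. The ratio (fold) column, dKO mean over control mean, and both p-value columns were used as the authors deposited them. The deposited fold matched the ratio of the means within 1.12e-07.

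Calls use the authors' p adjusted over all 16241 tested genes, under 0.05. Log2 changes were computed from the means, with a group at 0 set to a floor of 3 reads summed over its libraries (as means, 0.963 in dKO and 1.21 in control). Group means were solved into whole reads per library: 100% of means up to 100 had a single solution in either group, against 0% of random values. For dKO means of 100 to 200 the shares were 100% and 7.67% of random values, and for 200 to 500 they were 54.0% and 14.7%; Setd4, Sirt4, Cbx8 and Sirt5 rest on these. On simulated means built from whole reads, 100% of single solutions were right in each of these ranges. The search lists every solution, so the true one was always among them, and this share does not check the recovery. Libraries are listed by falling size factor (1.16, 1.08 and 1.04 in dKO, 1.02, 0.952 and 0.823 in control), which their labels do not give. Promoters came from RefSeq (GRCm38.p6). The members and lists were chosen with earlier results of these data known. By rule, full values go to called members of at least 1.5-fold with a mean of at least 100, to the 2 most abundant members per family that did not pass, and to up to 3 called genes per partner list; other members may be named, and a few that enter the counts are not reported here by name. Role classes and gene pairs were chosen after values were seen. Python 3.11.15 with pandas 2.3.3 was used.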

Additional observations from a re-analysis of the deposited data

How the results depend on the processing

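The counts of chromatin genes called, 13 higher and 24 lower, were 12 and 20 at an adjusted p under 0.01, 15 and 24 under 0.1, and 13 and 24 with the adjustment redone over genes with an average of at least 10. Requiring at least 1.5-fold left 9 higher, 14 lower and, of the partner genes, 27 of 58 calls. The partner count was 47 under 0.01, 65 under 0.1 and 59 with the redone adjustment. With 8 genes under older symbols the counts were 13 and 26 of 104, and without Uhrf1bp1, Uhrf1bp1l and Smarca5-ps, a choice made after seeing the data, 12 and 23 of 93. The median log2 change of -0.13 was -0.073 for the genes with an average of at least 100, a class chosen after seeing the data, and between -0.13 and -0.12 under the other settings. Centring on the median of tested genes was a shift of only -0.003, and a pseudocount cannot turn a direction, so neither bears on stability. Each of the 6 libraries could be left out in turn for 7 genes of low abundance, none of them called. Hdac9 (0.46) then ranged from -0.032 (without the control library of size factor 0.823) to 1.77 and Smarca1 (-0.16) from -0.49 to 0.080 (without the dKO library of size factor 1.16), while Chd5 (-0.57) ranged from -1.46 to -0.012, Smarca5-ps (-0.85) from -1.12 to -0.30, Smarcd3 (-0.50) from -0.93 to -0.19, Kdm4d (-2.53) from -3.46 to -1.04 and Hdac11 (-1.09) from -1.43 to -0.85. For Sirt5, Sirt4, Setd4 and Cbx8 only dKO libraries could be left out. Sirt5, the one called, then ranged from -1.38 to -1.17. No paired analysis was possible because the table gives 1 mean per group and the recovered libraries carry no replicate number.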

Other observations

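Some chromatin genes of high abundance differed as much as called ones without passing. Smarcd2, a BAF subunit known in granulocyte development, was 1.48-fold lower in dKO and Chd1 1.24-fold lower, with means of 2198 in dKO and 2733 in control in the authors' deposited table (authors' adjusted p = 0.508). Smarca5, with means of 3727 in dKO and 4643 in control in the authors' deposited table, was 1.25-fold lower and was called (authors' adjusted p = 0.0136). Their values per library are not given, so the spread behind these p-values cannot be shown.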
